A study of Mus musculus with 12 samples.

Results

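The genes described here encode 10 cell-surface proteins, grouped under the name of chronic myeloid leukaemia (CML) stem cell surface markers. They are Il1rap, Il2ra, Dpp4, Cd33, Cd36, Cd93, Cd47, Cd38, Cd27 and Ptprc. Not all of them tell leukaemic from normal stem cells. They were chosen by name, matched to Ensembl identifiers, and are 10 of the 56748 genes counted. All 10 were measured and all 10 passed the filter on low counts. Bulk RNA-seq was available for 12 libraries of donor CD45.2+Lin-Sca+Kit+ (LSK) bone marrow (BM) cells, a sorted fraction that holds stem and early progenitor cells. The donor marrow came from SCLtTA/BCR-ABL double transgenic (DTG) mice, in which SCL regulatory sequence drives a tetracycline (TET)-repressible activator of BCR::ABL1. Both groups carry these transgenes. The B6.SJL recipients (CD45.1), labelled as 8 to 12 weeks old, were irradiated and received TET for 2 weeks after transplant. In 6 libraries TET was then withdrawn for 2 weeks so that BCR::ABL1 was expressed (BCR::ABL1+), and in 6 it was continued (BCR::ABL1-). By the paper's account the donor marrow was a frozen pool from several animals of both sexes, so the libraries are not separate donors. Irradiated hosts keep some cells of their own, which the CD45.2 gate is meant to remove.

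These proteins have different roles at the cell surface. IL2RA (CD25) and IL1RAP are chains of cytokine receptors, and DPP4 (CD26) and CD38 are enzymes whose active sites face outwards. CD36, CD93 and CD33 bind lipids, matrix or sugars. CD47 signals to other immune cells, CD27 receives signals from them, and PTPRC (CD45) is the phosphatase found on all nucleated blood cells. In human CML, IL1RAP, CD25, CD26, CD33, CD36 and CD93 are known for being found on leukaemic stem cells, whereas CD38 marks the more mature progenitors and CD27 has been studied as a receptor on stem cells that is engaged by CD70.

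To show where transcription of members with unlike behaviour begins, the promoter windows of Il2ra, Cd27, Cd36 and Cd47 are given here from RefSeq (GRCm38.p6), from 250 bases before to 50 after the start of the gene and 5′ to 3′ on the strand of the gene. The capitals mark CpG dinucleotides. The windows lie at chr2:11642542-11642841 on the plus strand for Il2ra, chr6:125236978-125237277 on the minus strand for Cd27, chr5:17835847-17836146 on the minus strand for Cd36 and chr16:49855404-49855703 on the plus strand for Cd47. The counts were made on another mouse build, so no read is placed on these coordinates.
Il2ra: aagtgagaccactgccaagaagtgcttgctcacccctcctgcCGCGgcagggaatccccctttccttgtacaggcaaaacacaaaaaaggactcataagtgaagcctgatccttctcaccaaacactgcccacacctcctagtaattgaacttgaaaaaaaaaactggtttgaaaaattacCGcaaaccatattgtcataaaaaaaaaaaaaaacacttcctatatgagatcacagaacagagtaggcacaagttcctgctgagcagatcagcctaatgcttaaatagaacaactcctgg
Cd27: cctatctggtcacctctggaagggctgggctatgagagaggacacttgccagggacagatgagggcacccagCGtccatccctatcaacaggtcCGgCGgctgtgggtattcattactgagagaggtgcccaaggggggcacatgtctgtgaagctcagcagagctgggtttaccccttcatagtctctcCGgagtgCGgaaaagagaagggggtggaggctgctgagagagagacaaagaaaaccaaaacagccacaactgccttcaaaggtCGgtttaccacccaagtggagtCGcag
Cd36: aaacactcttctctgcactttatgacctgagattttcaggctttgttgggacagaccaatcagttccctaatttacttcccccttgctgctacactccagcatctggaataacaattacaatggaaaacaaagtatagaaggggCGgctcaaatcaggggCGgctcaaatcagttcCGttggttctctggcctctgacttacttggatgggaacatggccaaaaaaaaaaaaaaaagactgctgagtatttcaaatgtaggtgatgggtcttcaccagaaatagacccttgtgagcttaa
Cd47: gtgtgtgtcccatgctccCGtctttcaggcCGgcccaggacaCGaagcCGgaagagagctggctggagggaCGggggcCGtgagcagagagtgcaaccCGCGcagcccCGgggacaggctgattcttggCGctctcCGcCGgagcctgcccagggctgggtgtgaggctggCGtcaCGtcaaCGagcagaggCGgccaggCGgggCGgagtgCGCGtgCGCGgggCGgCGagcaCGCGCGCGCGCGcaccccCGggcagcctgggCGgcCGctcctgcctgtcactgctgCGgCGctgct
The Cd47 window holds 35 CpG and 74.0% G and C, against 3 CpG and 42.7% in that of Il2ra, 3 CpG and 43.0% in that of Cd36 and 7 CpG and 56.0% in that of Cd27. Over 32851 promoter windows the median was 7 CpG and 52.7%. Il1rap, with 33 CpG and 72.0%, had the other CpG-rich window, and windows were given for 9 of the 10 members, all but Cd93. Both strands were searched for 5 motifs, a choice made after the values of the members had been seen. The STAT motif TTCNNNGAA, found in 8.3% of all windows, was in no window of a member. The ETS motif AGGAAG (35.4% of all windows) was in those of Il1rap, Il2ra, Dpp4, Cd33, Cd38 and Ptprc, and the GATA motif AGATAA (11.2%) in those of Dpp4, Cd38 and Ptprc. The RUNX motif TGTGGT (16.8%) was in that of Cd33, and TATAAA (13.6%) in those of Dpp4 and Ptprc. These are matches of letters only.

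In BCR::ABL1+ cells Il2ra and Ptprc were higher, Cd93, Cd27, Cd36 and Dpp4 were lower, and Il1rap, Cd33, Cd47 and Cd38 did not pass the test. Il2ra had by far the largest change of the 10, a 13.7-fold rise from a very low level, and Cd93, which fell 2.35-fold, the clearest decrease. Levels are library-scaled counts (CPM, with TMM factors), and each change is tested with edgeR's quasi-likelihood test over all 18438 genes tested, with a gene called at a Benjamini-Hochberg adjusted p under 0.05. The 6 called members of 10 stand beside 59.5% called among all genes tested, 30.6% higher and 29.0% lower. Counts of called genes in the lists and marker sets below are to be read beside these shares. Groups did not overlap for 4 of the 10 members (Il2ra, Ptprc, Cd93 and Cd27), beside 37.6% of all genes tested. Neither share of the members is thus apart from that of all genes, and what follows concerns the size and pattern of single members.

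**Figure D1:**
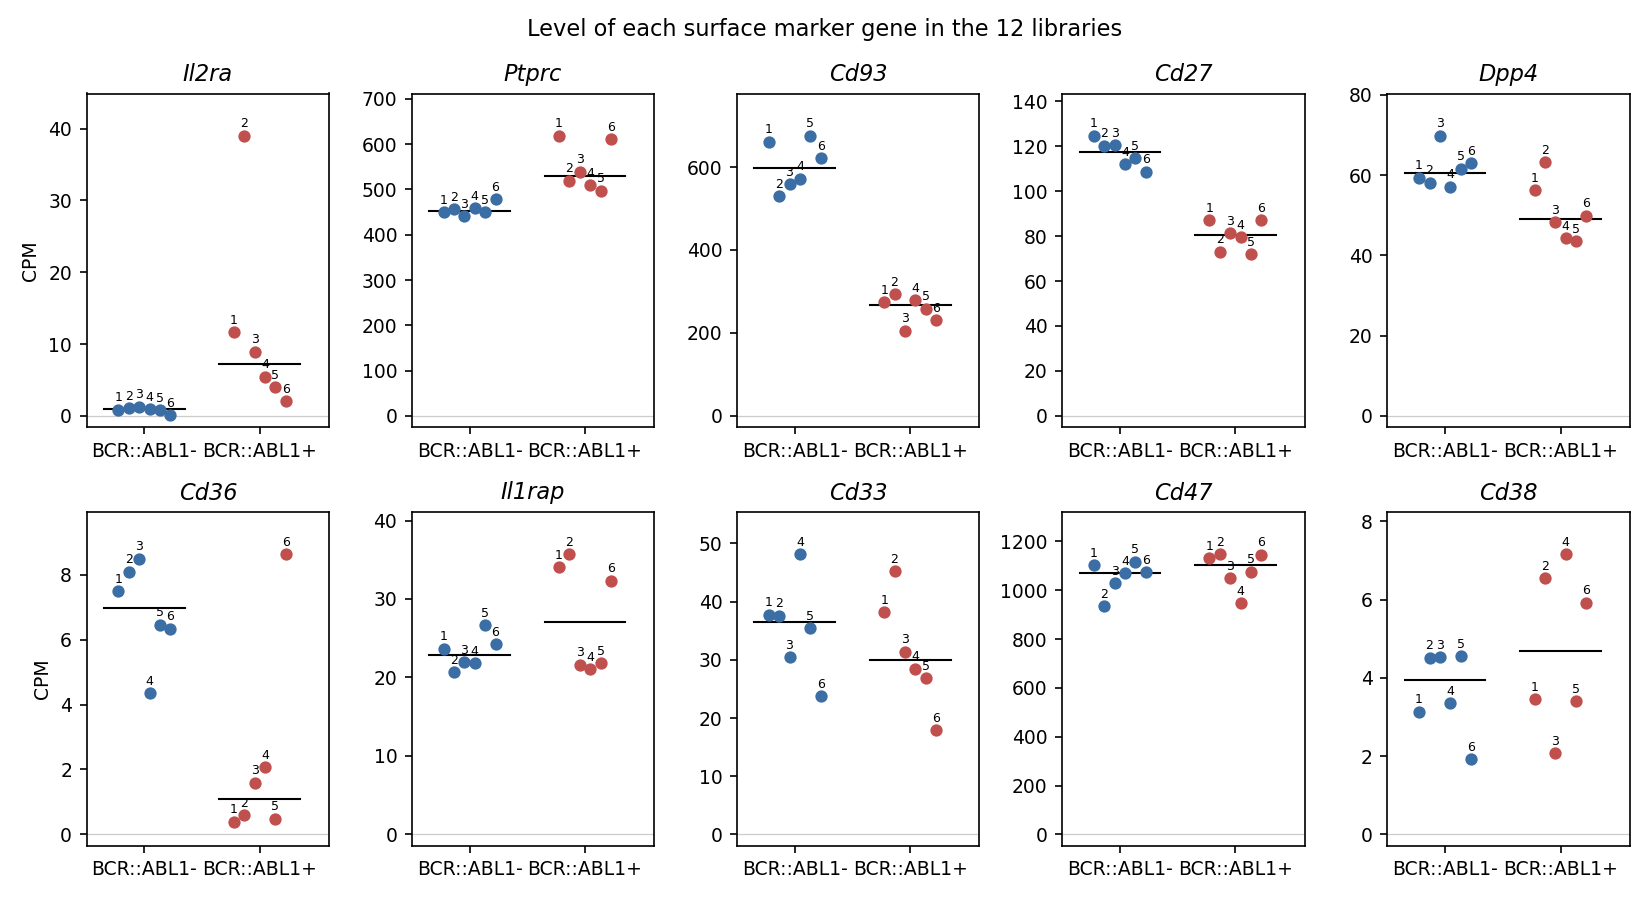
CPM of each surface marker gene (y axis, linear from 0, its own scale in each panel) in the 6 BCR::ABL1- and 6 BCR::ABL1+ libraries; a point is 1 library with its replicate number, and the line is the median of the group. The groups do not overlap for Il2ra, Ptprc, Cd93 and Cd27, and Cd36 overlaps through replicate 6 of BCR::ABL1+ at 8.63 CPM.

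Depth was 22804754 to 41832868 counts in BCR::ABL1- and 16150817 to 25070105 in BCR::ABL1+. The biological coefficient of variation was 10.8% among the controls and 32.6% among BCR::ABL1+ libraries, and all 10 members, like 91.6% of all genes tested, had the wider spread of log2 CPM in BCR::ABL1+. Of the sorted antigens, Kit was present throughout (681 to 800.0 CPM without BCR::ABL1 and 323 to 522 with it, a log2 fold change of -0.86), and so was Ly6a, which encodes Sca-1 (27.2 to 38.3 and 31.4 to 74.1 CPM). The labels give male for BCR::ABL1- and female for BCR::ABL1+, so labelled sex and group cannot be told apart. In these donor-sorted cells Ddx3y of the Y chromosome had at most 24 counts in every library but replicate 2 of BCR::ABL1+ (202 counts). Xist was at 2183 CPM or more in all 12. Such Ddx3y counts are low for the pool of both sexes that the paper describes, and the reason was not tested. In bulk samples, fewer cells of a type and less RNA per cell cannot be told apart.

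Of the cytokine receptor chains, Il2ra (ENSMUSG00000026770), the high-affinity chain of the IL-2 receptor, was low in BCR::ABL1-. Its level there was 0.113, 0.912 and 1.27 CPM (lowest, median and highest), from 19 to 40 counts per library except replicate 6, which had 3. In BCR::ABL1+ it was 11.6, 39.0, 8.94, 5.48, 3.98 and 2.02 CPM in replicates 1 to 6, from 41 to 912 counts. Every BCR::ABL1+ library lay above every BCR::ABL1- library, but replicate 2 stood far above the other 5 and replicate 6 close to the controls. The log2 fold change was 3.78 (SE 0.67, 95% interval 2.35 to 5.20, adjusted p = 0.00021), and 0.315% of the genes tested changed by more. Without replicate 2 it was 2.87 (adjusted p = 6.18e-05), which is a smaller fold but still a call; adjusted p was 0.000817 or less under all 19 alternatives. An exact permutation test of mean log2 CPM gave p = 0.00216, the smallest that 924 assignments allow.

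The other chains that IL2RA works with did not follow it. Il2rb, the signalling chain shared with IL-15, fell from a median of 4.54 CPM (2.00 to 5.92) to 1.24 (0.128 to 3.01), a log2 fold change of -1.68 (adjusted p = 0.0067) with overlapping groups. Il2rg, the common gamma chain, had medians of 44.8 and 39.0 CPM and did not pass the test (log2 fold change -0.20, adjusted p = 0.058). Per kilobase of exon, the median of Il2ra was 0.160 CPM in BCR::ABL1-, below Il2rb at 1.06, and 1.26 CPM in BCR::ABL1+, above Il2rb at 0.290. Il2ra was above Il2rb in 0 of 6 controls and in 5 of 6 BCR::ABL1+ libraries, while Il2rg was the highest of the 3 in both groups at 18.8 and 16.4 CPM per kilobase. Il15ra, the alpha chain of the IL-15 receptor, was higher in BCR::ABL1+ without overlap (log2 fold change 0.66, adjusted p = 1.61e-05), and Il2 itself was at or near 0 in all libraries.

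Of 13 tested genes of the IL-2 receptor and STAT5 list, 3 rose, 5 fell and 5 did not pass. The 61.5% called is close to the 59.5% of all genes tested. Stat5a and Stat5b, the transcription factors that the receptor activates, fell by 0.77 and 0.89 on the log2 scale, and Jak3, the kinase bound to the common gamma chain, fell by 0.92. Socs3, a feedback inhibitor of JAK kinases, rose from 4.53 to 8.82 CPM to 28.0 to 50.7 (log2 fold change 2.44, adjusted p = 7.67e-08). Cish, Socs2 and Pim1, which are well known STAT5 targets, did not pass, at log2 fold changes of 0.18, 0.12 and 0.00. Socs1, of the same list, was called higher with overlapping groups (log2 fold change 0.53, adjusted p = 0.0323). Bcl2l1 did not pass (log2 fold change -0.33, adjusted p = 0.132). The activity of STAT5 itself was not measured.

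Il1rap (ENSMUSG00000022514), the accessory chain that IL-1, IL-33 and IL-36 receptors share, did not pass the test. It was at 20.7, 22.8 and 26.7 CPM (lowest, median and highest) in BCR::ABL1-. In BCR::ABL1+ replicates 1, 2 and 6 were at 34.1, 35.7 and 32.3 CPM, above every control, whereas replicates 3, 4 and 5 were at 21.6, 21.1 and 21.9, inside the control range. This is a log2 fold change of 0.26 (SE 0.14, 95% interval -0.04 to 0.56, adjusted p = 0.124), so that changes between 0.972-fold and 1.48-fold are compatible with these libraries. With upper-quartile factors it passed (log2 fold change 0.33, adjusted p = 0.0419); over all alternatives adjusted p ran up to 0.304.

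Of the 3 signalling receptors that pair with IL1RAP, Il1rl1 and Il1r1 were higher and Il1rl2, the IL-36 receptor, did not pass (log2 fold change 0.09). Il1rl1 (ST2), the IL-33 receptor, rose from 8.44 to 21.3 CPM to 49.2 to 255 without overlap (log2 fold change 3.09, adjusted p = 6.46e-06), and Il1r1, the signalling IL-1 receptor, rose by 0.44 on the log2 scale (adjusted p = 0.00666) with overlap. The decoy receptor Il1r2 rose by 1.66 on the log2 scale (adjusted p = 0.00366), with 23.1 CPM in replicate 2 and a median of 5.05 in BCR::ABL1+. Per kilobase of exon, the median of Il1rl1 was 1.56 CPM in BCR::ABL1-, below Il1rap at 2.01, and 13.8 in BCR::ABL1+, above Il1rap at 2.38. Library by library, Il1rl1 was above Il1rap in 2 of 6 controls and in 6 of 6 BCR::ABL1+ libraries. Il1r1 lay above Il1rap in both groups, at 14.1 and 18.9 CPM per kilobase. Of 14 tested genes of this list 4 rose, 5 fell and 5 did not pass, 64.3% called beside 59.5% of all genes tested. Those that fell included, with their log2 fold changes, Irak1 (-0.87), Sigirr (-0.61) and Traf6 (-0.48). These are a kinase, an inhibitory receptor and a ubiquitin ligase of the pathway.

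**Figure D2:**
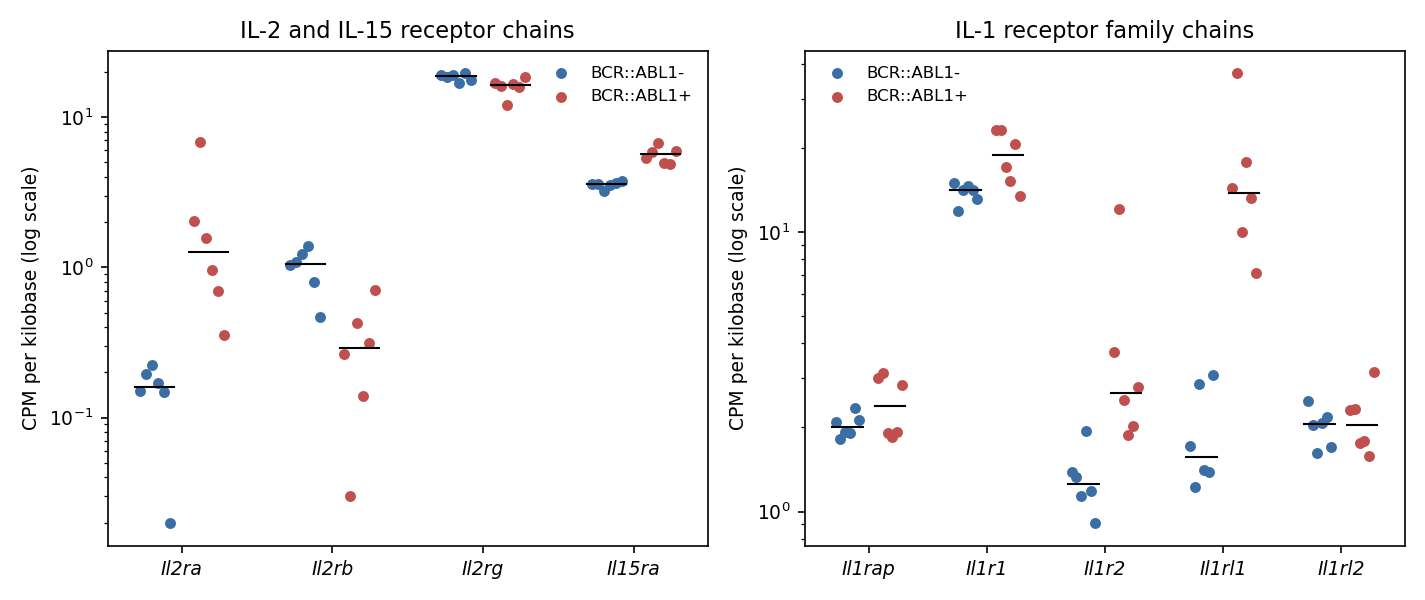
CPM per kilobase of exon (y axis, log scale) of IL-2 and IL-15 receptor chains and of IL-1 receptor family chains; a point is 1 of 6 libraries in each group and the line is the median. The median of Il2ra is below that of Il2rb in BCR::ABL1- (0.160 and 1.06) and above it in BCR::ABL1+ (1.26 and 0.290), and that of Il1rl1 passes that of Il1rap.

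Markers of mast cells and basophils, cell types that carry ST2 and can carry IL2RA, were higher in BCR::ABL1+ beside both receptor genes. The summed level of 8 such markers was 76.4 to 168 CPM in BCR::ABL1- and 399 to 2279 in BCR::ABL1+, and 6 of the 8 were called higher. The defining markers Cpa3 and Fcer1a had log2 fold changes of 2.57 and 4.46, and none of the 8 was at 0 in all libraries. Replicate 2 of BCR::ABL1+ was highest, and replicate 6 lowest of its group, in the summed level, in Il2ra and in Il1rl1. The order of Il2ra did not match throughout: replicate 4 was next to the highest in the summed level (984 CPM) but below replicates 1, 2 and 3 in Il2ra (5.48 CPM). Replicate 6 of BCR::ABL1-, highest of the controls in the summed level (168 CPM), had the lowest Il2ra (0.113 CPM). Il1rl1 kept closer to the sum. Replicate 4 was next to the highest of BCR::ABL1+ in Il1rl1 too (17.8 CPM per kilobase), and replicate 6 the highest of BCR::ABL1- (3.09). Only replicates 1 and 5 of BCR::ABL1+ were in reverse order in Il1rl1 (14.4 and 13.3) and in the sum (740 and 843 CPM). Replicate 2 also had 826 CPM of stromal markers, against at most 307 in the other 5 of its group and at most 109 in the controls. The part of these cells in the values of Il2ra and Il1rl1 was not tested.

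**Figure D3:**
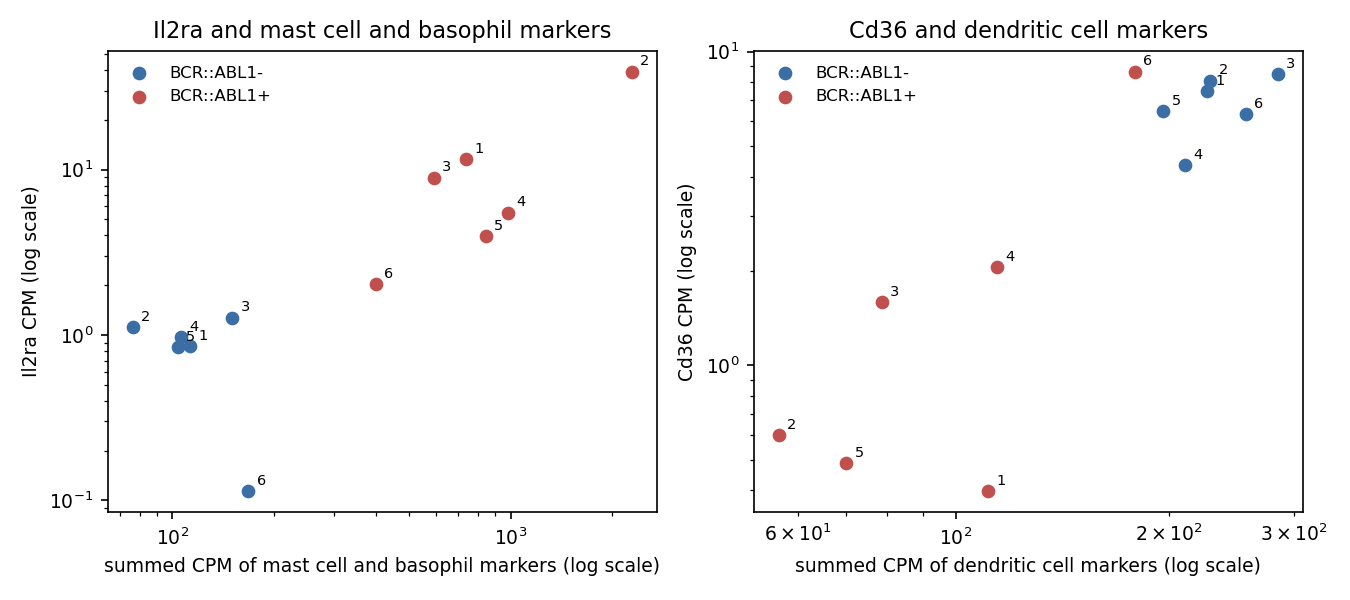
Il2ra CPM against the summed CPM of mast cell and basophil markers, and Cd36 CPM against that of dendritic cell markers (all axes log scale); a point is 1 library with its replicate number. Replicate 2 of BCR::ABL1+ is highest for Il2ra (39.0) and its marker sum (2279), and replicate 6 is highest of BCR::ABL1+ for Cd36 (8.63) and its marker sum (179).

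Of the surface enzymes, Dpp4 (ENSMUSG00000035000), a dipeptidyl peptidase that trims chemokines such as CXCL12, was slightly lower in BCR::ABL1+. It was at 57.1, 60.5 and 69.9 CPM in BCR::ABL1- (lowest, median and highest) and at 43.5, 49.1 and 63.2 in BCR::ABL1+. In BCR::ABL1+ 5 libraries lay below every control, and replicate 2, at 63.2 CPM, lay inside their range. The decrease was -0.27 on the log2 scale (SE 0.09, 95% interval -0.47 to -0.08, adjusted p = 0.0173). Without replicate 6 of both groups, whose file numbers set them apart from the rest, the call was lost (log2 fold change -0.25, adjusted p = 0.0585, the highest of the alternatives, which ran from 0.000897).

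The relatives of Dpp4 and its chemokine axis were measured beside it. The intracellular peptidases Dpp8 and Dpp9 fell by 0.37 and 0.38 on the log2 scale without overlap, and Cxcr4, the receptor of CXCL12, rose by 0.50 (adjusted p = 0.00232). Of 7 tested genes 2 rose, 2 fell and 3 did not pass, 57.1% called beside 59.5% of all genes tested. Cxcl12 was at 3.45 CPM or less in every library. Cav1, caveolin, a DPP4 binding partner, was called higher (log2 fold change 4.04), but was at 25.4 CPM in replicate 2 of BCR::ABL1+, the library with the highest stromal markers, and its medians were 0.269 and 0.967.

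Cd38 (ENSMUSG00000029084), which consumes NAD and makes cyclic ADP-ribose, was low and did not pass. It was at 1.92, 3.94 and 4.56 CPM in BCR::ABL1- and at 2.08, 4.69 and 7.16 in BCR::ABL1+, from 34 to 153 counts per library. Replicates 2, 4 and 6 of BCR::ABL1+ lay above every control and the other 3 inside the control range. The difference, 0.38 on the log2 scale (SE 0.29, adjusted p = 0.279), had a wide 95% interval at this depth, 0.841-fold to 2.01-fold. Of the NAD genes Nampt, the main salvage enzyme, rose by 1.18 on the log2 scale and Nmnat3 by 0.34, Parp1, a large consumer of NAD, fell by 0.61, and Bst1, the paralogue of Cd38, did not pass (-0.45). Of 10 tested, 2 rose, 2 fell and 6 did not pass, 40.0% called beside 59.5% of all genes tested.

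Among the receptors for matrix, lipid and sugar, Cd93 (ENSMUSG00000027435), a C-type lectin-like receptor of stem, endothelial and myeloid cells, fell. Its level was 530.4, 596 and 676 CPM in BCR::ABL1- and 205, 266 and 294 in BCR::ABL1+. All 6 BCR::ABL1+ libraries were below the lowest control, with little spread among them. Its log2 fold change was -1.23 (SE 0.09, 95% interval -1.43 to -1.03, adjusted p = 1.05e-07), and 9.13% of the genes tested changed by more. It was called under all 19 alternatives, from -1.32 to -1.16.

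The ligands and relatives of CD93 moved unevenly. Mmrn1, multimerin of platelets and megakaryocytes, fell by 2.92 on the log2 scale without overlap, and Thbd, thrombomodulin, a member of the same receptor family, did not pass (log2 fold change -0.23). Summed megakaryocyte markers were at 86.6 to 143 CPM in the controls and at 10.3 to 28.4 with BCR::ABL1, all 4 that could be tested were called lower, and their part in the values of Mmrn1 was not tested. Only 4 of the 7 genes of this list could be tested, with 1 higher and 1 lower. Summed endothelial markers were 85.4 to 102 CPM in BCR::ABL1- and 52.3 to 80.6 in BCR::ABL1+, with 3 of the 6 called lower, none higher and none at 0 in all libraries. The defining endothelial gene Cdh5 was at 0.242 to 0.595 CPM in BCR::ABL1-. The LSK genes Kit, Cd34, Flt3, Hlf and Meis1 fell too, by 0.44 to 1.64 on the log2 scale, whereas Ly6a did not pass (log2 fold change 0.38). The part of these markers in the values of Cd93 was not tested.

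Cd36 (ENSMUSG00000002944), a scavenger receptor that takes up long-chain fatty acids, was lower in 5 of 6 BCR::ABL1+ libraries. It was at 4.35, 6.98 and 8.49 CPM in BCR::ABL1- and at 0.397, 0.599, 1.59, 2.06, 0.488 and 8.63 in replicates 1 to 6 of BCR::ABL1+. Replicate 6 thus lay above every control and the others below every control. Over all 12 libraries the log2 fold change was -1.58 (SE 0.60, 95% interval -2.87 to -0.30, adjusted p = 0.0342). Without replicate 6 of BCR::ABL1+ it was -2.78 (adjusted p = 3.68e-05), but the call was lost when replicate 1, 2 or 3 of BCR::ABL1- or replicate 1, 3, 4 or 5 of BCR::ABL1+ was left out (adjusted p 0.0565 to 0.0677); the highest of any alternative was 0.0704.

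Dendritic cell markers were lower in BCR::ABL1+ beside Cd36. Their summed level was 196 to 284 CPM in BCR::ABL1- and 56.3 to 179 in BCR::ABL1+, highest of that group in replicate 6. The match was not complete: replicate 6 was below every control in the summed level but above every control in Cd36, and replicate 1, with the lowest Cd36, had a summed level of 111 CPM, near the 114 of replicate 4. Xcr1 and Clec9a mark cross-presenting dendritic cells, a type that carries CD36. They were at 21.7 and 13.5 CPM in replicate 6 and at 5.32 and 3.69 CPM or less in the other 5. In BCR::ABL1- they were at 7.08 to 17.1 and at 10.1 to 20.1 CPM. Replicate 6 thus lay above every control in Xcr1, as in Cd36, and inside the control range in Clec9a. Of the 6 dendritic markers 4 were called lower, none higher, and none was at 0 in all libraries. Erythroid markers, of cells that also carry CD36, were at 50.9 to 134 CPM summed in BCR::ABL1- and at 5.29 to 27.9 in BCR::ABL1+, with all 6 called lower. The part of these cells in the values of Cd36 was not tested. Of 9 tested genes of fatty acid uptake 3 rose, 1 fell and 5 did not pass, 44.4% called beside 59.5% of all genes tested. The fatty acid carrier Fabp5 rose by 1.42 on the log2 scale and the receptor Scarb1 by 0.22. Cpt1a, which brings fatty acids into mitochondria, fell by 0.72. All of these changed without overlap.

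Cd33 (ENSMUSG00000004609), a sialic acid-binding lectin of myeloid cells, did not pass the test. It was at 23.8, 36.5 and 48.2 CPM in BCR::ABL1- and at 17.9, 30.0 and 45.3 in BCR::ABL1+, groups that overlap almost throughout. A log2 fold change of -0.18 was fitted (SE 0.20, 95% interval -0.60 to 0.24, adjusted p = 0.442). Of its relatives, Siglech, a marker of plasmacytoid dendritic cells, Cd22 and Siglecg, both inhibitory receptors of B cells, fell by 3.05, 2.20 and 1.39 on the log2 scale without overlap. The phosphatase Ptpn11 (SHP-2), which inhibitory receptors of this family can recruit, fell by 0.75 on the log2 scale. B cell markers summed to between 30.3 and 107 CPM in the controls and to between 26.3 and 81.4 in BCR::ABL1+, and their part in these values was not tested. Summed neutrophil markers were at 285 to 2765 CPM in the controls and at 437 to 1191 in BCR::ABL1+, with 1 of the 8 called higher and 4 lower. Among the controls replicate 4 was highest and replicate 6 lowest in both this sum and Cd33. In BCR::ABL1+ replicate 6 had the highest sum but the lowest Cd33. The part of neutrophils in the values of Cd33 was not tested. Of 10 tested genes of the Cd33 list 2 rose, 5 fell and 3 did not pass, 70.0% called beside 59.5% of all genes tested.

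Of the genes that act between immune cells, Cd47 (ENSMUSG00000055447), the signal against phagocytosis, had the highest level per kilobase of the 10 and did not pass the test. Its range was 934 to 1116 CPM in BCR::ABL1- with a median of 1072, and 948 to 1148 in BCR::ABL1+ with a median of 1104. The log2 fold change was 0.04 (SE 0.07, adjusted p = 0.636), with a 95% interval of 0.930-fold to 1.14-fold, the narrowest span of the 4 members not called. The receptor gene Sirpa and the enzyme gene Qpctl, which modifies CD47 for its binding, did not pass either (log2 fold changes -0.11 and 0.00). Calr, calreticulin, a signal for phagocytosis when it reaches the surface, rose from a range of 789.8 to 1055 CPM to one of 1216 to 2286 (log2 fold change 0.94, adjusted p = 2.97e-05). Of 7 tested genes 2 rose and none fell, 28.6% called beside 59.5% of all genes tested.

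Cd27 (ENSMUSG00000030336), a TNF receptor family member that marks progenitors with lymphoid potential, fell in every BCR::ABL1+ library. It was at 109, 117 and 125 CPM in BCR::ABL1- and at 72.0, 80.4 and 87.2 in BCR::ABL1+, with a gap between the groups. The log2 fold change was -0.55 (SE 0.06, 95% interval -0.68 to -0.41, adjusted p = 3.84e-06), a 1.46-fold decrease that was called under all 19 alternatives. Its ligand gene Cd70 was at 0 in all 12 libraries. Of its signalling partners, the adaptor Traf3 and the kinase Map3k14 (NIK) fell by 0.77 and 0.55 on the log2 scale, and Siva1, which binds the tail of CD27, rose by 0.89. Tnfrsf9 (4-1BB) rose by 4.02 on the log2 scale, with 26.4 CPM in replicate 2 and a median of 3.30 in BCR::ABL1+. Of 9 tested genes 2 rose, 5 fell and 2 did not pass, 77.8% called beside 59.5% of all genes tested.

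Ptprc (ENSMUSG00000026395), whose CD45.2 form was used to sort these cells, was modestly higher. It was at 442, 453 and 478 CPM in BCR::ABL1- and at 497, 529.6 and 619 in BCR::ABL1+, with replicates 1 and 6 highest at 619 and 611. The groups did not overlap, and the spread was 2.75% (coefficient of variation) in BCR::ABL1-, the least of the 10 members, and 9.57% in BCR::ABL1+. Ptprc thus had a log2 fold change of 0.27 (SE 0.07, 95% interval 0.13 to 0.41, adjusted p = 0.00274). Without a filter on low counts it did not pass (log2 fold change 0.20, adjusted p = 0.0688, the highest of the alternatives, which ran from 0.000401). Summed monocyte and macrophage markers were at 167 to 216 CPM among the controls and at 336 to 685 with BCR::ABL1, also highest in replicates 6 and 1, at 685 and 611; of these 8 markers 3 were called higher and 1 lower, the defining marker Csf1r did not pass, and none was at 0 in all libraries. Their part in the values of Ptprc was not tested. Counts per gene do not separate the CD45.1 and CD45.2 alleles.

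Of 10 tested regulators and substrates of CD45, 7 fell, 2 rose and 1 did not pass, beside 29.0% lower and 30.6% higher among all genes tested. The Src family kinase Lck, a substrate of CD45, fell by 0.97 on the log2 scale, and Ptprj, another receptor phosphatase, by 0.76, both without overlap. Lgals1, a galectin that binds CD45, rose by 1.38 on the log2 scale and Hnrnpll, which controls CD45 splicing, by 0.24, the latter with overlap. Ptprcap, the CD45-associated protein, had at most 0.0377 CPM.

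**Figure D4:**
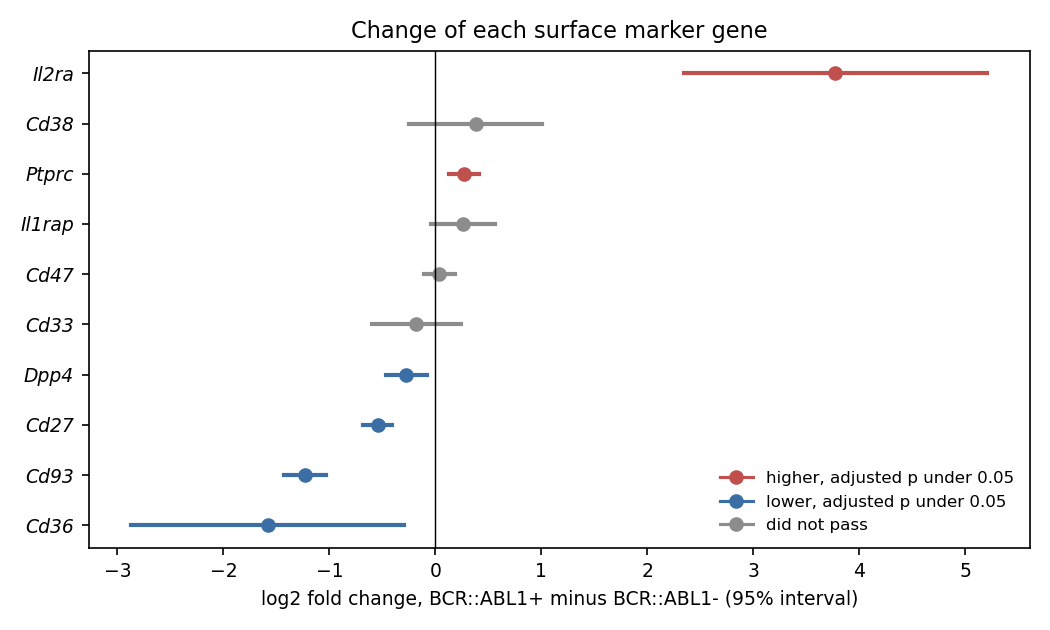
Log2 fold change of each surface marker gene (x axis, BCR::ABL1+ minus BCR::ABL1-) with its 95% interval; colours mark genes called higher, called lower or not called at an adjusted p under 0.05. Il2ra is at 3.78, Cd93 at -1.23 with a narrow interval and Cd36 at -1.58 with a wide one, while the intervals of Il1rap, Cd33, Cd47 and Cd38 include 0.

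Levels of different genes were compared per kilobase of exon. In BCR::ABL1- the mean was highest for Cd47 (168 CPM per kilobase), followed by Cd93 (90.3), Cd27 (50.1), Ptprc (24.9), Dpp4 (9.73), Cd33 (4.57), Il1rap (2.04), Cd36 (1.91), Cd38 (0.944) and Il2ra (0.151). Only the neighbours Il1rap and Cd36 overlapped in range. In BCR::ABL1+ the first 7 kept their places, Cd93 (38.5), Cd27 (34.4) and Ptprc (30.0) came close enough for neighbours to overlap, and Il2ra went from place 10 to place 8 with a mean of 2.07. Without replicate 2 its mean was 1.12, just under that of Cd38 (1.13), and its place was 9. Cd36 moved from place 8 to place 10 (0.639), and from Cd33 downwards all neighbours overlapped.

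All genes of these lists together with other surface proteins of stem and leukaemic cells, 115 tested of 129, gave 30 higher and 42 lower, or 62.6% called beside 59.5% of all genes. Their median log2 fold change was -0.11, and that of all genes was 0.07. Among the 22 other surface proteins in this total, 7 rose, 9 fell and 6 did not pass. Changes without overlap included those of Adgrg1, an adhesion receptor of stem cells (log2 fold change -1.26), Thy1 (1.12) and Cd48 (1.10), which is absent from the most primitive mouse stem cells.

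For each member the genes whose deviations from the group means were most alike over the 12 libraries were looked up among 11401 genes, as a description with no p. Mycl and Clec9a, both genes of dendritic cells, were nearest to Cd36 (Pearson's r 0.965 and 0.958), and Odr4 and Ctsa to Il1rap (0.963 and 0.950). The nearest to Il2ra were Tspyl2 and Tob1 (0.946 and 0.945), which were both called lower in BCR::ABL1+ while Il2ra was higher. Tcf20 and Gatad2b were nearest to Cd93 (0.958 and 0.957), Ppm1k and Ppwd1 to Cd27 (0.907 and 0.905), Nus1 and Zdhhc13 to Dpp4 (0.950 and 0.928), and Mmp9 and Osm to Cd33 (0.923 and 0.905). The nearest to Cd47 were D16Ertd472e (0.941) and Nt5dc1 (0.915), to Cd38 Ninl (0.897) and Tmem176b (0.881), and to Ptprc Gadd45b (0.896) and St8sia4 (0.886). These libraries differ in depth and cell composition, which such values can reflect as well.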

How the data were processed

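Bulk RNA-seq of 12 libraries of donor LSK cells was used, 6 BCR::ABL1- (TET continued) and 6 BCR::ABL1+ (2 weeks after TET withdrawal), grouped by their labels. The authors deposited raw read counts per Ensembl gene for each library. The submitters' processing notes name fastp 0.23.2, STAR 2.7.10a, featureCounts 2.0.1 and mm39, whereas the paper names other tools and a human build; the strand setting is not given in the sources used here. Il1rap and Dpp4 overlap antisense genes with 100 and 65 counts in all.

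Symbols were matched by identifier (52073 of 56748). Counts were tested with edgeR 4.0.16 in R 4.3.3 (quasi-likelihood, TMM, filterByExpr, Benjamini-Hochberg, 0.05), with 95% intervals from the t distribution, and DESeq2 1.42.0 as an alternative. log2 CPM used a prior count of 2. Lengths are merged exons of GENCODE. Where no read was counted, up to 3 counts are allowed for, a limit on counting error only. Python 3.11.15, scipy 1.17.1 and matplotlib 3.10.9 gave permutation tests and plots. The test was also run on simulated counts with the same spread in both groups. That run cannot check it for the unlike spread of the real groups.

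Members and lists were chosen with earlier results of these data known. Named were all members, up to 4 called genes per list with the largest change and no overlap, direct partners, defining markers and the 2 genes most alike to each member; other genes were chosen after their values were seen. This rule names 3 genes that are not reported here. The labels do not say whether each library is 1 animal, so p-values measure the spread between libraries. Alternatives were other scalings, no filter, the replicate number as a block and leaving out libraries.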

Additional observations from a re-analysis of the deposited data

Results flagged for a closer look

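In 20 groups of 6 libraries (10 members in both groups), 3 libraries stood apart from the rest of their group by Dixon's criterion, where chance gives about 1. Il2ra was at 0.113 CPM (3 counts) in replicate 6 of BCR::ABL1-, with the next library at 0.841. In BCR::ABL1+, replicate 2 had 39.0 CPM of Il2ra and the next 11.6. Cd36 was at 8.63 CPM in replicate 6 of BCR::ABL1+, with the next at 2.06.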

How the results depend on the processing

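Of 190 values (10 members under 19 alternatives), 178 kept their direction and their side of the threshold, 10 lost a call, 1 gained one and 1 changed sign. Il2ra, Cd93 and Cd27 were called under all 19. The sign changed for Cd47 without a filter on low counts (-0.033, not called). Ptprc was called under 18 alternatives, Dpp4 under 18 and Cd36 under 11, and without replicates 2 and 4 of BCR::ABL1+ Cd36 had adjusted p = 0.0704 (log2 fold change -1.31). Without a filter 1 member was called higher, not 2. With upper-quartile factors the ratio of the medians of Cd27 was 0.746. Leaving out 1 library at a time gave ranges of 2.87 to 3.98 for Il2ra, -1.28 to -1.17 for Cd93, -0.58 to -0.52 for Cd27, -2.78 to -1.36 for Cd36, -0.35 to -0.23 for Dpp4 and 0.23 to 0.29 for Ptprc. The cause of these moves was not tested. Counts of a few reads limit Il2ra and Cd36 in single libraries.

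Correlations of deviations between libraries of the same replicate number ran from -0.125 to 0.068. Such values cannot exclude a pairing, and the labels do not state one. With a replicate block 2 members were called higher and 4 lower, as without it. The log2 fold change was then -2.36 for Cd36 (adjusted p = 0.00653) and 3.37 for Il2ra. The SE of Il2ra fell from 0.67 to 0.37, while that of Cd38 rose from 0.29 to 0.33.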

Other observations

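Of 45 pairs of members compared over the 6 BCR::ABL1+ libraries, Il2ra and Cd33 put the libraries in the same order, with replicate 2 highest and replicate 6 lowest (Spearman's rho 1.00, exact permutation p = 0.00278, adjusted over the 45 pairs 0.125; Pearson's r 0.957, exact permutation p = 0.00694, adjusted 0.156; r 0.947 without the 2 libraries farthest from the median). No pair passed the adjustment, and the pair was noticed after the values were seen.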
